A study of Mus musculus with 6 samples.

Results

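The mitochondrial ribosome is built from proteins that are encoded in the nucleus, made in the cytosol and imported, together with ribosomal RNA encoded by mitochondrial DNA. The genes of these proteins, named Mrpl for the large subunit and Mrps for the small, were followed here in hearts of mice after myocardial infarction (MI). They were taken as all rows of the raw read count table whose mouse symbol is Mrpl or Mrps followed by a number and at most 1 letter, with 10 or more reads summed over the 6 libraries. Of 54532 rows, 78 carried such a symbol and 77 met the read minimum. The exception, Mrpl53 (a protein at the base of the stalk), had 0 reads in every library. All 77 passed the filter on low counts, with 89 reads or more of each gene in each library, so no member was left out of the test.

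RNA was sequenced from hearts of C57BL/6 mice aged 8 to 10 weeks. The 2 groups were wild-type mice (WT) and mice without a working Ackr4 gene (ACKR4-KO, below KO), with 3 libraries each, and every heart was taken 14 days after MI. ACKR4 is an atypical chemokine receptor that takes up chemokines without G protein signalling, and the comparison asks how its loss bears on the infarcted heart. The sources used here do not give the knockout allele, the part of the heart taken or the size of the infarct. They do not state that each library came from its own animal, so the p-values measure the spread between these libraries, which may be partly technical.

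Mitochondrial ribosomes translate only the few proteins of the mitochondrial genome, all of them core subunits of the respiratory chain and ATP synthase, on which the beating heart depends. The large subunit holds the peptidyl transferase centre and the exit tunnel, and the small subunit binds mRNA and decodes it. Around a conserved core with counterparts in bacteria, both subunits carry proteins that only mitochondrial ribosomes have. Recessive defects in several of the genes cause combined respiratory chain deficiency in humans, often with cardiomyopathy. In current structures 50 of the 77 genes encode large-subunit proteins, 26 encode small-subunit proteins, and Mrps36 encodes neither. Among the ribosomal ones, 46 encode proteins with a bacterial homolog and 30 encode mitochondria-specific ones.

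Promoters of members are shown first, because genes of the mitochondrial translation and respiratory machinery are known targets of the transcription factors NRF1 and NRF2 (the ETS-family protein GABP) and because the 77 genes leaned the same way in the comparison below. RefSeq promoter windows (GRCm38.p6) were matched for 68 members, 74 windows in all, and the 250 bases before the start site were searched on both strands. The NRF1-type word, 10 letters with 1 free position, was in 10 of the 74 windows (13.5%), against 3.74% of all 32851 windows. An ETS-type word, CCGGAAG, was in 17 (23%), against 6.91%. CCAAT was in 27 (36.5%), against 33.8%, and TATAAA in 5 (6.76%), against 12.4%. The NRF1-type and ETS-type words do not overlap in letters, and 26 members had at least 1 of them, Mrpl17 both. In the stretches below, each 150 bases ending at the RefSeq start, capitals mark these 2 words. Mrpl12 and Mrpl45 show the NRF1-type word, Mrps22, Mrpl58 and Mrpl3 the ETS-type word close to the start, and Mrpl42, the member with the highest level, neither.
Mrpl12, chr11:120484487-120484636, plus strand: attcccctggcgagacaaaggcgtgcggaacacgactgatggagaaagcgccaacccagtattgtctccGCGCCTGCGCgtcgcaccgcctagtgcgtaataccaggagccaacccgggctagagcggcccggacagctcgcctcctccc
Mrpl45, chr11:97315566-97315715, plus strand: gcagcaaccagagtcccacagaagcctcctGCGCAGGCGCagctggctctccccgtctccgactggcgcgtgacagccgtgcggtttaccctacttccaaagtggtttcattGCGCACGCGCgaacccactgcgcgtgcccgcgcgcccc
Mrps22, chr9:98601680-98601829, minus strand: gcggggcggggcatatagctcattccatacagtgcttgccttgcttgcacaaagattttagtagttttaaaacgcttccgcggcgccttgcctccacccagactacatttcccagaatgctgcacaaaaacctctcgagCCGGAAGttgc
Mrpl58, chr11:115403602-115403751, plus strand: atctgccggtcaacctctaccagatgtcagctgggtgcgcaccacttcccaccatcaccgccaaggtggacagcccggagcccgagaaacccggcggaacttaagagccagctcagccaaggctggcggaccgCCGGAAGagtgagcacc
Mrpl3, chr9:105053118-105053267, plus strand: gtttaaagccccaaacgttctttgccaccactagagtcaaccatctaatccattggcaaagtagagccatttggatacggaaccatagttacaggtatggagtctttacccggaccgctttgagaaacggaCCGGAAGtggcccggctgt
Mrpl42, chr10:95501950-95502099, minus strand: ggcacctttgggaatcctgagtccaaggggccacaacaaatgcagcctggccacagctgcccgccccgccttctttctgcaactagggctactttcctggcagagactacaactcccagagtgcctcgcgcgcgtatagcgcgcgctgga

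The word of Mrpl12 lay 81 to 72 bases before the start. Mrpl45 had a pair, at 120 to 111 and at 38 to 29 bases before it. The ETS-type words of Mrps22, Mrpl58 and Mrpl3 began 11, 17 and 19 bases before the RefSeq start. The last 29 bases shown for Mrpl3 and the last 24 for Mrpl12 lie in the first exon of the GENCODE gene, which starts earlier, so the word of Mrpl3 is inside that annotated transcript and the word of Mrpl12 is not. These matches describe letters and are no evidence of binding. Members with and without an NRF1-type word had median log2 fold changes between KO and WT of 0.23 and 0.22. With and without an ETS-type word they were 0.25 and 0.22, with and without CCAAT 0.28 and 0.21, and with and without TATAAA 0.22 and 0.23. These differences were not tested. Mrpl3, the member with the lowest fold change, and Mrpl58, among the 5 with the smallest p on the higher side, both carried the ETS-type word.

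Library totals lay between 9422462 and 13910358 reads, of which 15.8% to 21.4% fell on mitochondrially encoded genes. Reads of Ackr4 itself numbered 165, 151 and 169 in WT and 4, 1 and 12 in KO, or 13.3 ± 2.00 against 0.491 ± 0.494 CPM (counts scaled to library size; mean ± SD, n = 3 each). Its log2 fold change was -4.70 (SE 0.48), and the adjusted p was 0.099 in the edgeR fit and 1.41e-18 in DESeq2. All 12 cardiomyocyte markers were measured at high levels, as the tissue label says. Other tissues' genes were present unevenly: 4 tested lung epithelium markers summed to 223, 37.0 and 107 CPM in WT and to 0.323, 0.820 and 1.83 CPM in KO, and 5 fast skeletal muscle markers to 3.66, 79.7 and 103 CPM in WT and to 2.34, 7.68 and 3.75 CPM in KO. The part of such tissue in the member values was not tested.

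The members were well expressed. Over all libraries the median member stood at 44.7 CPM, with a range from 11.1 to 191, against a median of 19.4 CPM for all genes tested. Per length (RPKM, CPM per kilobase of a typical transcript), the WT median was 32.0, from 4.81 for Mrpl19 to 239 for Mrpl42, a 49.7-fold range. The large-subunit members had a median WT level of 34.3 RPKM and the small-subunit members 19.6 RPKM. Genes of the ribosome with other symbols are not in these medians. Of these, the small-subunit genes Dap3, Ptcd3, Chchd1 and Aurkaip1 were at 50.1, 27.7, 88.0 and 71.3 RPKM in WT. The large-subunit gene Gadd45gip1 was at 13.1 RPKM. The medians are therefore those of the symbol rule and the length used, not of the whole subunits. At the top of the order in WT were Mrpl42 at 239 ± 11.8 RPKM, Mrpl30 at 192 ± 2.26, Mrps21 at 148 ± 12.2 and Mrpl34 at 110 ± 13.9 (SD, n = 3), each without overlap with the next. Mrpl42 is a mitochondria-specific protein, Mrpl30, Mrps21 and Mrpl34 counterparts of bacterial ribosomal proteins.

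Below these leaders the order was close. Mrpl52 (88.1 RPKM), Mrpl54 (86.8), Mrps23 (86.4) and Mrpl33 (85.2) overlapped one another over the WT libraries, and of all 76 neighbouring pairs in the order only 5 had WT ranges that did not overlap. The order also depends on the length used. With all annotated exons of a gene as its length, 5 of the 10 members with the highest levels stayed among the first 10, Mrpl34 came first and Mrps21 second, while Mrpl42 moved to rank 13, Mrpl30 to 15 and Mrpl33 from 8 to 66. Transcript shares were not measured, so the gene with the most RNA per length cannot be named from these counts alone.

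**Figure D1:**
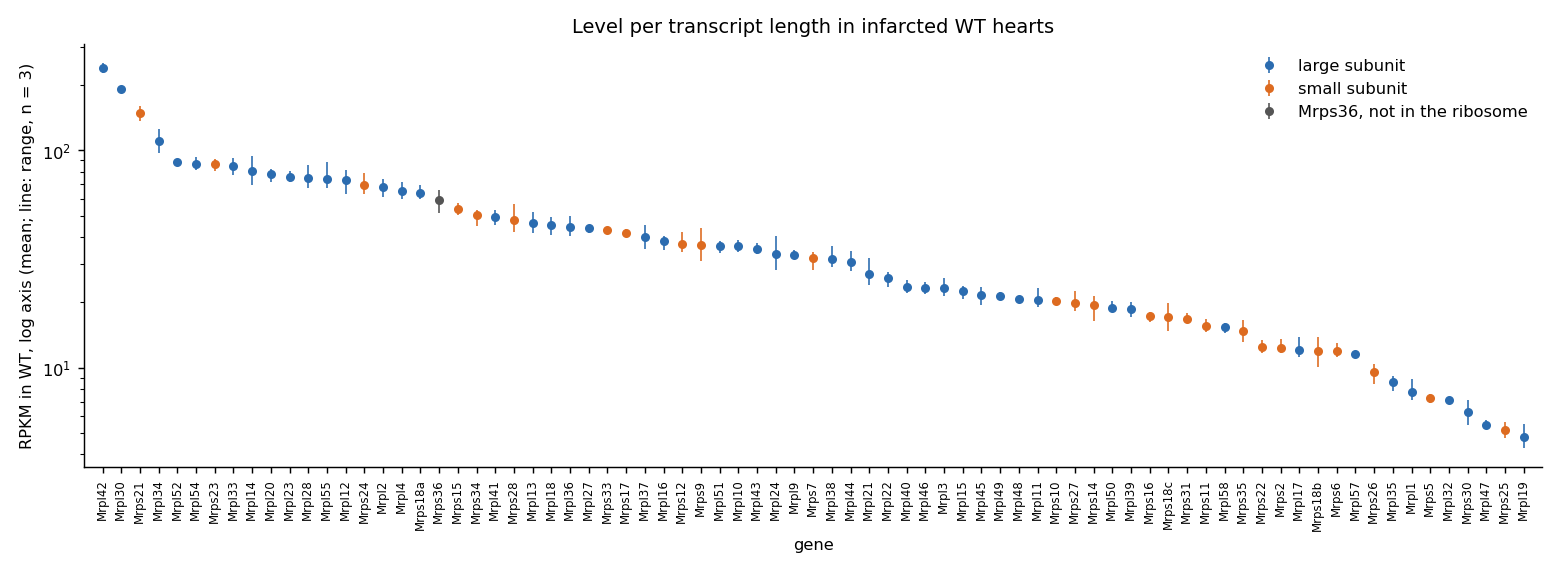
Level of each of the 77 members in WT hearts, in RPKM on a log axis, ordered from the highest; points are means and lines the range of the 3 WT libraries, with colours for the subunit. The median is 32.0 RPKM, and Mrpl42, at 239, lies 49.7-fold above Mrpl19, at 4.81.

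Between genotypes, nearly all of the members had a higher fitted level in KO, by a small amount. A positive log2 fold change (KO minus WT) was found for 73 of 77 members (94.8%), against 52.0% of the 14406 genes tested, and the median was 0.23, or 16.9% higher, against 0.01 for all genes. The values ran from -0.21 for Mrpl3, a core protein of the large subunit, to 0.53 for Mrps36 and Mrps6. No member passed the threshold: edgeR's quasi-likelihood test (two-sided, Benjamini-Hochberg over all genes, threshold 0.05) called 0 of 77, with a background of 0% (0 of 14406 genes), and the smallest adjusted p of a member was 0.63. DESeq2 also called 0 members, with a background of 0.234% (41 of 17550 genes) and a smallest adjusted p of 0.5.

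At an unadjusted p under 0.05, edgeR gave 11 members (14.3%), all on the higher side, against a background of 7.45% of all genes, 3.81% on the higher and 3.64% on the lower side. DESeq2 gave 8. Members whose libraries did not overlap between the groups also numbered 11 (14.3%), again all higher in KO, against a background of 14.2% in either direction, 6.53% higher and 7.63% lower. The share in either direction was near the background. Among the 8446 genes whose mean CPM lay within the members' range, the shares were much the same: 53.0% had a positive fold change, 7.91% had an unadjusted p under 0.05 (4.31% higher, 3.60% lower), and 14.6% did not overlap (6.78% higher, 7.79% lower).

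**Figure D2:**
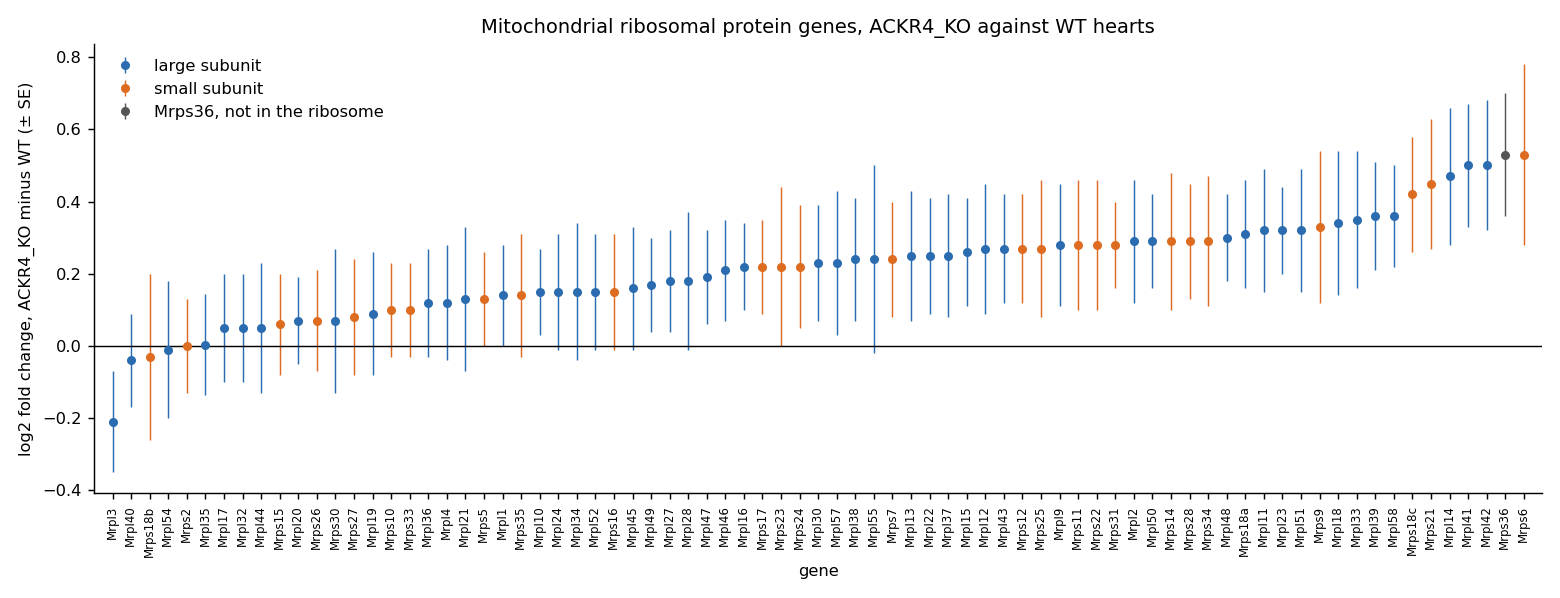
Fitted log2 fold change (KO minus WT) of each member with its SE, ordered by value. Of 77 points, 73 lie above 0 and 4 below, between -0.21 (Mrpl3) and 0.53, and none passes an adjusted p of 0.05.

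The libraries within a genotype differed as much as the genotypes. A member score was taken for each library as the mean, over the 77 genes, of log2 CPM minus that gene's mean over the 6 libraries. It was -0.11, 0.009 and -0.20 in WT replicates 1 to 3, and -0.15, 0.33 and 0.12 in KO replicates 1 to 3. KO replicate 1 thus lay among the WT libraries, below 2 of them, and the groups overlapped; KO replicates 2 and 3 lay above all WT libraries. The summed level of the members, on the same scaling, was 3535, 3842 and 3303 CPM in WT, and 3431, 4924 and 4212 CPM in KO. The scaling factor (TMM) was 0.891 in KO replicate 2 and 1.01 to 1.05 in the others. Unscaled, the members took 0.359%, 0.396% and 0.345% of reads in WT and 0.347%, 0.438% and 0.424% in KO. KO replicates 2 and 3 lay closer together in that share. Without mitochondrially encoded genes the shares were 0.445%, 0.471% and 0.425% in WT and 0.428%, 0.557% and 0.505% in KO. Gene by gene, 13 members were above every WT library in KO replicate 1, 73 in replicate 2 and 50 in replicate 3, while 24, 0 and 6 were below every WT library. For all genes the corresponding shares were 28.2%, 35.4% and 34.2% above, and 30.1%, 36.0% and 34.0% below.

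KO replicate 2 held the highest value of 63 members and KO replicate 3 that of 11; the other 3 peaked in WT replicate 2. The lowest value fell in WT replicate 3 for 38 members and in KO replicate 1 for 22. In KO replicate 2 all 77 members were above their own mean, from 0.02 for Mrpl40 to 0.74 for Mrps6 on the log2 scale. KO replicate 3 was the most uneven, with an SD over members of 0.20 (0.10 to 0.14 in the other 5 libraries), from -0.49 for Mrps18b to 0.54 for Mrpl41. Without KO replicate 2 the median log2 fold change was 0.10 and 56 of 77 members were higher. Without KO replicate 1 it was 0.34, with 75 higher and 39 at an unadjusted p under 0.05; without WT replicate 3 that count was 0. The share of all genes at that p moved as well, to 13.1% and 3.27% in the same 2 fits, against 7.45% with all libraries.

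**Figure D3:**
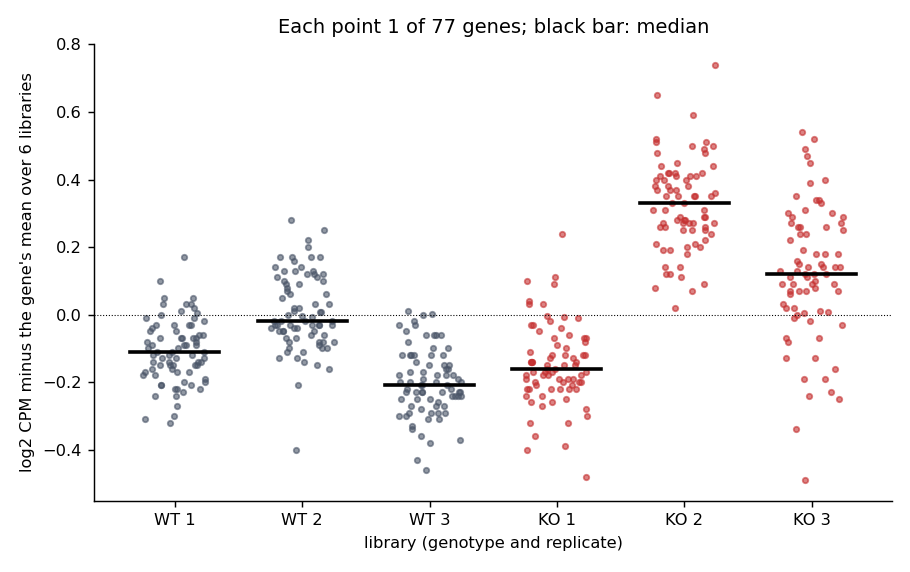
Deviation of each of the 77 members from its own mean over the 6 libraries (log2 CPM), one column of points for each library, with the median as a bar. KO replicate 2 stands highest, with every member above 0, and KO replicate 1 lies among the WT libraries.

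By subunit, the fold changes were alike. The 50 large-subunit genes had a median log2 fold change of 0.23, with 47 higher and 7 at an unadjusted p under 0.05. The 26 small-subunit genes had a median of 0.23, with 25 higher and 3 at that p. These are 14.0% and 11.5% of their groups, against the background of 7.45% of all genes (3.81% on the higher side). Genes with a bacterial homolog (45 of 46 higher, median 0.22) and mitochondria-specific genes (27 of 30 higher, median 0.23) did not separate either. Within the large subunit the medians were 0.18 for bacterial homologs and 0.24 for mitochondria-specific proteins, and within the small subunit 0.25 and 0.18. The difference between any of these groups was not tested.

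Among large-subunit genes with the smallest p on the higher side was Mrpl41 (ENSMUSG00000036850, chr2:24974117-24975098, minus strand, GRCm38), a mitochondria-specific protein. Its level was 41.5, 39.2 and 35.1 CPM in WT and 41.5, 56.6 and 66.0 CPM in KO. KO replicate 1 matched the highest WT library to the printed digits, so the groups were separated by less than the rounding. The log2 fold change was 0.50 (SE 0.17, adjusted p = 0.661 by edgeR).

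Mrpl42 (ENSMUSG00000062981, chr10:95480805-95501940, minus strand) was at 157, 166 and 151 CPM in WT and at 162, 264 and 243 CPM in KO. KO replicate 1 lay inside the WT range and the other two KO libraries far above it. Its log2 fold change was 0.50 (SE 0.18, adjusted p = 0.661 by edgeR).

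Mrpl23 (ENSMUSG00000037772, chr7:142532686-142540747, plus strand), which sits at the mouth of the exit tunnel, was at 52.4, 55.6 and 49.4 CPM in WT and at 59.7, 72.4 and 64.2 CPM in KO. Every KO library was above every WT library. The log2 fold change was 0.32 (SE 0.12, adjusted p = 0.661 by edgeR). All 6 genes of the tunnel exit were higher in KO, with a median of 0.17; the anchor protein Mrpl45, which ties the ribosome to the inner membrane, was at 54.0, 57.4 and 47.1 CPM in WT and at 48.6, 74.2 and 53.9 CPM in KO, and the groups overlapped (0.16, SE 0.17).

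Mrpl58 (ENSMUSG00000018858, chr11:115403752-115412674, plus strand), a peptidyl-tRNA hydrolase of the release factor family that was taken up into the large subunit, was at 39.7, 40.5 and 36.4 CPM in WT and at 42.9, 58.6 and 48.2 CPM in KO. The groups did not overlap. Its log2 fold change was 0.36 (SE 0.14, adjusted p = 0.661 by edgeR).

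The stalk recruits translation factors to the ribosome. Its protein Mrpl12, which has also been described as a partner of the mitochondrial RNA polymerase, was at 107, 99.2 and 82.6 CPM in WT and at 94.7, 148 and 106 CPM in KO. Only KO replicate 2 lay above the WT range (log2 fold change 0.27, SE 0.18). Of the 4 stalk genes tested, 3 were higher, with a median of 0.21, and the other, Mrpl54, had a fold change near 0: 51.7, 56.3 and 49.3 CPM in WT and 46.4, 69.0 and 40.7 CPM in KO (-0.01, SE 0.19). In KO the Mrpl54 values spanned both sides of the WT range. In the central protuberance, the crown of the large subunit that contacts tRNA, 7 of 8 genes were higher, with a median of 0.22. The exception was Mrpl40, a mitochondria-specific protein, at 23.9, 26.1 and 22.9 CPM in WT and at 21.3, 24.3 and 25.1 CPM in KO (-0.04, SE 0.13).

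The other large-subunit genes of high level overlapped or nearly so. Mrpl30, a homolog of a bacterial large-subunit protein, was nearly constant in WT at 128, 128 and 125 CPM, and in KO at 130, 187 and 131 CPM. Its groups did not overlap, but only KO replicate 2 stood clear of WT (log2 fold change 0.23, SE 0.16). Mrpl34 was at 66.4, 75.8 and 59.0 CPM in WT and at 59.0, 94.9 and 69.7 CPM in KO (0.15, SE 0.19), and Mrpl33 at 37.0, 40.8 and 44.4 CPM in WT and at 38.8, 51.7 and 65.1 CPM in KO (0.35, SE 0.19). Both overlapped between the groups.

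Mrpl3 (ENSMUSG00000032563, chr9:105053239-105079888, plus strand), a conserved protein near the peptidyl transferase centre, had the lowest fold change of all members. Its level was 69.6, 81.6 and 67.2 CPM in WT and 58.6, 73.0 and 57.0 CPM in KO. KO replicates 1 and 3 were below every WT library and KO replicate 2 was within the WT range. The log2 fold change was -0.21 (SE 0.14, adjusted p = 0.728 by edgeR). With each library's member score subtracted, Mrpl3 had a KO minus WT difference of -0.41 on the log2 scale and its groups no longer overlapped. In all, the subtraction left 7 members lower and 8 higher in KO without overlap, on several chromosomes, and 62 overlapping. The next lowest of the 7 was Mrpl54 at -0.25, and the highest of the 8 was Mrps36 at 0.32. The score is the mean of these same members, so differences on both sides of 0 follow from the subtraction itself. No share after subtraction was taken for all genes, of which 14.2% did not overlap before it. Mrpl3 lies 0.926 Mb from Ackr4 on chromosome 9, the chromosome that carries the targeted locus. The other members on that chromosome, Mrps22 at 5.48 Mb and Mrpl4 at 83.1 Mb, had log2 fold changes of 0.28 and 0.12. Whether sequence around the targeted locus bears on Mrpl3 was not tested.

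**Figure D4:**
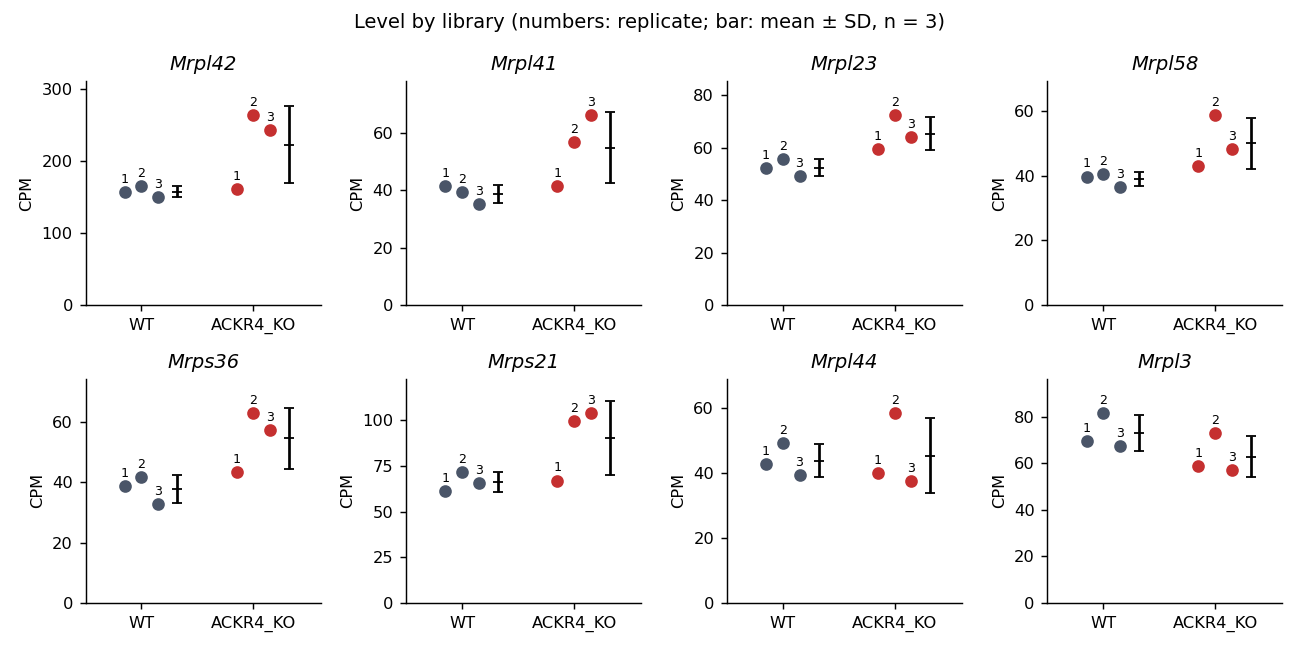
Level in CPM of 8 members in each of the 3 WT and 3 KO libraries, 1 panel per gene, with the mean ± SD (n = 3) as a bar. KO replicates 2 and 3 of Mrpl42 (264 and 243 CPM) stand above WT (151 to 166 CPM) and KO replicate 1 (162) does not; for Mrpl3, KO replicates 1 and 3 (58.6 and 57.0) lie below the WT libraries.

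In the small subunit, Mrps21, a counterpart of a bacterial protein, was at 61.0, 71.8 and 65.4 CPM in WT and at 67.0, 99.5 and 104 CPM in KO. KO replicate 1 was inside the WT range (log2 fold change 0.45, SE 0.18, adjusted p = 0.661 by edgeR). Mrps23 was at 117, 121 and 107 CPM in WT and at 87.6, 159 and 155 CPM in KO, so that the KO libraries lay on both sides of WT (0.22, SE 0.22). Mrps24, the homolog of the bacterial protein at the mRNA entry site, was at 65.6, 78.6 and 62.6 CPM in WT and at 65.2, 97.9 and 77.1 CPM in KO (0.22, SE 0.17). Mrps12, the decoding-centre protein in which streptomycin resistance arises in bacteria, was at 27.5, 34.0 and 28.4 CPM in WT and at 29.3, 38.9 and 39.8 CPM in KO (0.27, SE 0.15). None of these was separated between the groups.

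Mrps34, which is needed for the stability of the small subunit, was at 48.9, 49.1 and 41.1 CPM in WT and at 44.7, 71.5 and 53.9 CPM in KO (0.29, SE 0.18). Its principal transcript shares 62.7% of its bases with exons of Mapk8ip3 on the opposite strand, and since no strand setting of the counting is given, reads of the pair cannot be told apart. Mapk8ip3 itself was at 71.7, 65.6 and 74.4 CPM in WT and at 91.5, 94.2 and 88.7 CPM in KO, without overlap (0.37, SE 0.11, adjusted p = 0.606 by edgeR). The member with the largest shared part among the 77, named for that, was Mrps25, with 75.6% of its transcript shared with Nr2c2 on the opposite strand. Mrps25 was at 30.9, 34.2 and 28.9 CPM in WT and at 27.1, 43.2 and 42.9 CPM in KO (0.27, SE 0.19), and Nr2c2 had a log2 fold change of 0.10 (SE 0.23). Mrps18b, at 11.2, 13.1 and 9.50 CPM in WT and at 11.7, 13.6 and 7.77 CPM in KO (-0.03, SE 0.23), shares 59.1% with an antisense gene. It was the only small-subunit gene with a negative fold change. Only the principal transcript of each member was compared, so its other exons may share bases too. Mrpl46, for instance, counts as sharing none, yet Mrps11 shares 16.4% with exons of Mrpl46 on the opposite strand. On this measure 50 of 77 shared no base with another gene, and 11 shared more than 20%, 3 of them with a gene on the same strand. These 3 were Mrpl33 (37% shared), Mrps6 (36.1%, with Gm49711, which had 0 reads in every library) and Mrps18c (27.3%). How reads on their shared bases were counted is not known here, so their levels carry that limit.

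Of the genes whose human counterparts cause cardiomyopathy when defective, Mrpl3 is given above. Mrpl44, a large-subunit protein with a ribonuclease fold, was at 42.9, 49.3 and 39.5 CPM in WT and at 40.1, 58.6 and 37.7 CPM in KO (0.05, SE 0.18). Mrps22, a mitochondria-specific small-subunit protein, was at 14.8, 16.2 and 14.0 CPM in WT and at 14.5, 22.2 and 18.0 CPM in KO (0.28, SE 0.18). Mrps14, the homolog of a bacterial small-subunit head protein, was at 38.3, 40.6 and 31.2 CPM in WT and at 34.9, 43.4 and 56.5 CPM in KO (0.29, SE 0.19). All 3 overlapped between the groups, and their highest libraries were KO replicate 2 for Mrpl44 and Mrps22 and KO replicate 3 for Mrps14.

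Some members are misnamed for their place. Mrps18a and Mrps30 carry small-subunit symbols but sit in the large subunit, as mL66 and mL65. Mrps18a was at 46.3, 52.3 and 45.0 CPM in WT and at 57.0, 70.4 and 50.5 CPM in KO (0.31, SE 0.15), with KO replicate 3 inside the WT range. Mrps30 was at 18.0, 23.7 and 20.6 CPM in WT and at 19.8, 28.2 and 17.6 CPM in KO (0.07, SE 0.20), also overlapping. Mrps36 (ENSMUSG00000061474, chr13:100735955-100744659, minus strand) is no ribosomal protein but a component of the 2-oxoglutarate dehydrogenase complex of the citric acid cycle. It had the smallest p of all members: its level was 38.8, 41.9 and 32.8 CPM in WT and 43.4, 63.0 and 57.2 CPM in KO, without overlap (log2 fold change 0.53, SE 0.17, adjusted p = 0.63 by edgeR).

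The remaining members at an unadjusted p under 0.05, named after their values were seen, were Mrpl14, Mrpl39, Mrpl48, Mrps18c and Mrps31. Mrpl14, a conserved protein of the intersubunit face, was at 50.1, 60.9 and 44.6 CPM in WT and at 54.8, 86.6 and 74.4 CPM in KO (0.47, SE 0.19), and overlapped. Mrps18c, the one of the 3 Mrps18 proteins that takes the place of the bacterial protein, was at 12.7, 9.46 and 10.5 CPM in WT and at 14.9, 15.4 and 13.5 CPM in KO (0.42, SE 0.16). All 3 KO libraries were above every WT library. Mrpl48 and Mrps31 did not overlap either (0.30 and 0.28), and Mrpl39 did (0.36).

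Some further members, also named after their values were seen, complete the range. Mrps6, the homolog of a bacterial small-subunit protein, shared the highest fold change with Mrps36 but at a lower level and with more spread: it was at 9.49, 11.0 and 9.64 CPM in WT and at 9.61, 19.9 and 14.2 CPM in KO (0.53, SE 0.25). KO replicate 1 was inside its WT range. Mrpl16, Mrpl50 and Mrpl51, all of the large subunit, had groups that did not overlap, with log2 fold changes of 0.22 (SE 0.12), 0.29 (SE 0.13) and 0.32 (SE 0.17). At the low end, Mrps2 and Mrpl35 had log2 fold changes near 0, at 0.00056 (SE 0.13) and 0.0037 (SE 0.14).

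The members' partners in mitochondrial translation leaned the same way, without a gene past the threshold. Small-subunit proteins under other symbols (Dap3, Ptcd3, Chchd1 and Aurkaip1) were higher in 4 of 4, median 0.18, and the large-subunit gene Gadd45gip1 had -0.03. Translation factors were higher in 10 of 11 (median 0.27), with Tufm, the elongation factor that delivers tRNA, at 156, 192 and 149 CPM in WT and 165, 259 and 185 CPM in KO. Mitochondrial aminoacyl-tRNA synthetases were higher in 17 of 20 (0.17), assembly and rRNA modification factors in 17 of 24 (0.08), transcription and RNA stability genes in 9 of 11 tested of 12 (0.13), and membrane insertion genes in 4 of 4 tested of 5 (0.14). At an unadjusted p under 0.05 these lists held 2, 1, 0, 0 and 1 genes, in the order factors, synthetases, assembly, transcription and insertion, against the background of 7.45%.

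On the product side, the 42 nuclear genes of oxidative phosphorylation were all higher (42 of 42, median 0.34), against 52.0% of all genes. By edgeR 12 of them (28.6%) were at an unadjusted p under 0.05, against 7.45% of all genes, and 0 passed the adjusted threshold. Their library scores were -0.19, -0.05 and -0.30 in WT and -0.08, 0.48 and 0.14 in KO. The order of the KO libraries was that of the member scores. Of the 13 mitochondrially encoded proteins, which these ribosomes make, 12 were higher (median 0.23). None was at an unadjusted p under 0.05 by edgeR, and all 13 overlapped between the groups. Their scores, in which each gene weighs alike, were 0.18, -0.72 and -0.04 in WT and -0.15, 0.29 and 0.44 in KO. Their summed level had another order: 185000, 147000 and 175000 CPM in WT and 180000, 228000 and 155000 CPM in KO. KO replicate 3, highest by score, was thus below KO replicates 1 and 2 by amount. Some of these genes varied widely between libraries, such as mt-Co3 with 1291 to 21491 reads (SE 0.70). The pair of mitochondrial ribosomal RNAs had a median of 0.38 with KO scores of 0.08, 0.91 and -0.64. KO replicate 3, second highest for the members, was thus the lowest library for reads of the ribosomal RNAs that those proteins bind. How fully the libraries captured these RNAs is not known here. In WT mt-Rnr1 and mt-Rnr2 averaged 1610 and 3490 CPM, against 75900 CPM for the mRNA mt-Co1. Cytosolic ribosomal proteins, a list taken up after values were seen, were higher in 56 of 81 with a median of 0.07 and scores of -0.07, -0.04 and 0.24 in KO; KO replicate 2, the highest library for the members, stood at -0.04 there.

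Of 13 transcriptional regulators of mitochondrial genes, 8 were higher with a median of 0.05. Of the factors named with the promoters, Nrf1 had a log2 fold change of 0.05 (SE 0.16). The GABP genes Gabpa, Gabpb1 and Gabpb2 had 0.02, -0.13 and -0.05 (SE 0.14, 0.14 and 0.18), and these genes and Nrf1 overlapped between the groups. Of the 13 regulators, 3 (23.1%) were at an unadjusted p under 0.05 by edgeR, against the background of 7.45%. Among these, chosen after their values were seen, Ppargc1a, the coactivator PGC-1 alpha, was at 52.7, 40.1 and 46.1 CPM in WT and at 79.8, 100 and 63.8 CPM in KO, without overlap (log2 fold change 0.81, SE 0.18, adjusted p = 0.606 by edgeR, 0.0487 by DESeq2). The others at that p were Ppargc1b (0.99, SE 0.31) and Esrra (0.40, SE 0.15), also without overlap. Their adjusted p was 0.619 and 0.661 by edgeR. KO replicate 1, in which the members were low, had a Ppargc1a level above all WT libraries. Whether any of these regulators bears on the members was not tested.

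In whole-tissue RNA, fewer cells of a type and less RNA per cell cannot be told apart. The 12 cardiomyocyte markers were all higher in KO (median 0.39), with scores of -0.14, -0.02 and -0.32 in WT and -0.0051, 0.49 and 0.00066 in KO. Their highest library was that of the members, KO replicate 2. Of 8 fibroblast markers 7 were lower (median -0.38), with scores of 0.18, 0.31 and 0.30 in WT and 0.05, -1.12 and 0.29 in KO. KO replicate 2 was thus also the library poorest in fibroblast RNA. The same library was highest for the 5 erythroid markers, with scores of 0.20, 0.05 and -0.02 in WT and -0.52, 1.16 and -0.86 in KO. With this library left out, the median of the members was 0.10, as given above. Endothelial markers were lower in 6 of 6 (median -0.23), macrophage markers in 6 of 7 (-0.13) and T and NK cell markers in 6 of 6 tested (-1.49). The tested T and NK cell markers rest on few reads. They summed to 16.8, 16.6 and 10.4 CPM in WT and to 5.49, 4.71 and 6.29 CPM in KO, with 13, 1 and 3 reads of Cd3g in KO. The part of these cell types in the member values was not tested.

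Against the cardiomyocyte score, the member score was higher by 0.03, 0.03 and 0.12 in WT and differed by -0.14, -0.16 and 0.12 in KO. Set against heart muscle RNA in this way, the members were lower in KO replicates 1 and 2 than in any WT library, and KO replicate 3 was level with WT replicate 3. Against the nuclear oxidative phosphorylation score, the members stood at 0.08, 0.06 and 0.10 in WT and at -0.07, -0.15 and -0.02 in KO, so all 3 KO libraries lay below all 3 WT libraries. Other lists separated the libraries in the opposite direction. Against the endothelial score the members stood at -0.19, -0.09 and -0.41 in WT and at 0.08, 0.22 and 0.38 in KO. The T and NK cell and lung epithelium scores did likewise. These differences of scores are descriptions, with no test.

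**Figure D5:**
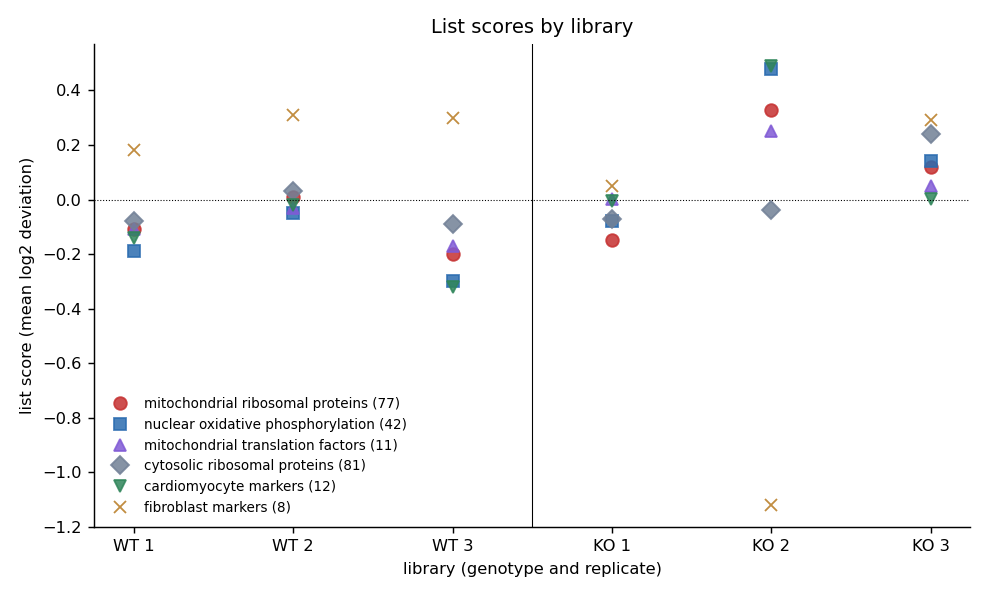
Score of each gene list in each library (mean log2 CPM minus the gene's mean over the 6 libraries), for the members and other lists. KO replicate 2 is highest for the members (0.33), nuclear oxidative phosphorylation (0.48) and cardiomyocyte markers (0.49) and lowest for fibroblast markers (-1.12).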

How the data were processed

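RNA was extracted from frozen hearts and made into libraries from 1 ug of total RNA with a NEBNext Ultra kit, per the labels' protocols. CASAVA 1.8.2, HISAT2, HTSeq 0.6.0 and build mm10 are named in the submitters' processing notes; the sources used here do not give the annotation release or strand setting. The authors deposited raw counts of reads per gene, 1 column per library.

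Symbols came from a gene name table by Ensembl ID (37 of 54532 rows had none), and lengths, positions and overlaps from GENCODE M21 on GRCm38. Counts were tested with edgeR 4.0.16 in R 4.3.3 (filterByExpr by group, TMM factors, robust quasi-likelihood fit, two-sided, Benjamini-Hochberg over 14406 genes, threshold 0.05). CPM uses TMM-scaled totals, and scores use log2 CPM with a prior count of 2. RPKM uses the median length of a gene's basic protein-coding transcripts. The script was tested on simulated data. DESeq2 1.42.0, limma-voom 3.58.1, other scalings and filters, removal of mitochondrially encoded genes, a replicate block and each library left out were the alternatives.

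Members and lists were chosen with earlier results of these data known. Named members are the 5 with the smallest p on the higher side and those on the lower side (4), the 4 with the highest level in each subunit, and a fixed set chosen for role or human disease. In other lists the rule named the 3 genes of highest level; only those a comparison turns on are printed. Intervals are SDs or SEs over 3 libraries per group.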

Additional observations from a re-analysis of the deposited data

How the results depend on the processing

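Over the alternatives other than leaving out a library, the median log2 fold change of the members stayed between 0.21 and 0.23 and no member passed the threshold under any setting run, while 8 to 12 members had an unadjusted p under 0.05. Over all genes, the count past the threshold was 0, but 24 with no filter on low counts, 41 by DESeq2, and 0 to 1 with each library left out (1 without KO replicate 3). With the replicate block the count was 6, the median of the members 0.21, with 71 of 77 higher and 10 at an unadjusted p under 0.05, and Ackr4 -4.73. The labels do not say that a number marks shared animals, days or batches, and the libraries were not treated as pairs. Deviations of same-numbered libraries correlated at 0.07, 0.05 and 0.13, those of the other pairs at -0.12 to 0.06, so that a weak sharing cannot be told from none. KO replicate 2 correlated best with WT replicate 1 (0.06), the other libraries with their own number. The Ackr4 log2 fold change passed the threshold with no filter (-4.70, adjusted p = 8.58e-05 by edgeR) and by DESeq2 (-4.73), and ranged from -5.82 to -4.28 with a library left out, passing without KO replicate 3. With each library left out, the median of the members ranged from 0.10 to 0.34, and members at an unadjusted p under 0.05 from 0 (without WT replicate 3) to 39 (without KO replicate 1). That count was 3 without WT replicate 1, 6 without WT replicate 2, 3 without KO replicate 2 and 9 without KO replicate 3. The shares of all genes at that p were 4.24%, 4.54% and 3.27% without WT replicates 1 to 3 and 13.1%, 6.64% and 12.5% without KO replicates 1 to 3, so they moved with the member counts in part; the cause was not tested. Over all 77 members, the sign of the fold change turned for 17 without KO replicate 2, for 2 to 4 with any other library left out, and for 0 to 2 under the other settings. Among the members named by the rule it turned with a library left out for Mrpl40 (-0.09 to 0.03), Mrps18b (-0.20 to 0.18), Mrpl54 (-0.26 to 0.14), Mrpl34 (-0.05 to 0.30), Mrpl44 (-0.17 to 0.17), Mrps30 (-0.14 to 0.21) and Mrpl45 (-0.04 to 0.28). With 3 libraries per group and SEs of 0.12 to 0.26, differences of the members' median size could not be called gene by gene.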

Other observations

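The spread between libraries was wider in KO than in WT for the members. Their median coefficient of variation in CPM was 8.42% in WT and 19.7% in KO, and it was larger in KO for 73 of 77. Among the 8446 genes of like level the medians were 7.95% and 14.4%, and it was larger in KO for 6474. No test of this difference was run.

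Mrpl53, with 0 reads in all 6 libraries, has a 695-base transcript of which 100% lies within exons of Gm42688, a gene on the same strand that had 6, 5, 4, 7, 8 and 1 reads in WT replicates 1 to 3 and KO replicates 1 to 3. The count of 0 for Mrpl53 therefore gives no level of its RNA. Processed pseudogenes of Mrpl23, Mrpl48 and Mrps36 had their own rows with few reads, such as 23, 13 and 26 reads in WT for Mrpl23-ps1, and reads shared by a gene and its copy cannot be told apart here.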
